A study of Mus musculus with 6 samples.

Results

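The lipid droplet coat and lipolysis genes are 10 genes chosen by symbol among the 52459 genes of the liver count table: the perilipins Plin1, Plin2, Plin3, Plin4 and Plin5, the CIDE family genes Cidea, Cideb and Cidec, the lipase gene Pnpla2 and its inhibitor gene G0s2. All 10 had a row in the table, and 9 passed the filter on low counts that left 17032 genes to test. A lipid droplet is a core of triglyceride and cholesteryl ester under a single layer of phospholipid, and hepatocytes store fat in such droplets when more fatty acid enters the cell than is burned or secreted. Perilipins coat the droplet and set the access of lipases, CIDE proteins act where droplets touch and pass lipid from the smaller to the larger, and ATGL, the product of Pnpla2, removes the first fatty acid from triglyceride. G0s2 binds and inhibits ATGL, whereas CGI-58, the product of Abhd5, activates it.

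RNA-Seq was performed on whole livers of 6 male C57BL6J mice of the Alb-Cre/Cas9 F1 generation, aged 8 months, in which the albumin promoter drives Cre in hepatocytes and Cre switches on the Cas9 nuclease. At 4 to 5 weeks of age, 3 mice received AAV8-U6-sgCtrl, a viral vector with a control guide RNA (sgCtrl, mice 5.1, 7.1 and 7.2), and 3 received AAV8-U6-sgPrdx2, with a guide RNA against peroxiredoxin 2 (sgPrdx2, mice 1.1, 1.3 and 3.2). Both groups were given the carcinogen diethylnitrosamine (DEN, 100 mg/kg) 3 weeks later and, after 1 more week, a choline-deficient high-fat diet (CDA-HFD) for 6 months. Every liver compared here thus had the same carcinogen and diet, and no liver on a normal diet was analysed here. The paper reports liver tumors in this model, with fewer tumors and less steatosis in sgPrdx2 than in sgCtrl mice. The tumor content of the 6 livers is not given in the sources used here. Hepatocytes that the vector did not reach keep an intact Prdx2, and RNA of the whole organ holds all its cell types. The comparison asks how the transcripts of the droplet surface and of its main lipase differed between the groups in steatotic liver.

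Total counts per liver ranged from 37462102 to 56865293, at which 3 counts, taken as the floor, equal 0.0555 to 0.0921 normalized CPM (counts relative to library size, with libraries scaled by TMM, the trimmed mean of M values). Hepatocyte markers were abundant in every liver, with the sum of 8 genes between 77107 and 85505 CPM in sgCtrl and between 133743 and 182402 CPM in sgPrdx2. Liver sgPrdx2 3.2 stood apart on the first principal component, at 61 against 10.9 and 19.7 in the other sgPrdx2 livers and -39.4 to -26 in sgCtrl. Prdx2 itself was at 109, 117 and 132 CPM in sgCtrl and at 99, 112 and 149 CPM in livers labelled sgPrdx2 (log2 fold change 0.01 ± 0.18 SE, edgeR adjusted p = 0.983), so its transcript level did not separate the groups and gives no check of the labels, from which all group names here are taken. The level of an mRNA cut by Cas9 need not follow the loss of its protein.

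In livers labelled sgPrdx2, Plin2 and Cidec were lower and Cideb was higher than in every sgCtrl liver, at 0.705, 0.516 and 1.55 times the sgCtrl level, but none of the 9 genes tested passed the threshold of edgeR's quasi-likelihood test after adjustment over all genes. Of all 17032 genes, 3.33% passed it (1.79% higher and 1.54% lower). At an unadjusted p under 0.05 the same test picked 3 of the 9, beside 24.9% of all genes (13% higher and 11.9% lower). DESeq2, run as an alternative, called these 3 (Plin2, Cideb and Cidec), beside 14% of the genes it tested (7.89% higher and 6.07% lower). The groups did not overlap for 4 of the 9 genes, 1 higher and 3 lower, against 34.2% of all genes (16.7% higher and 17.5% lower). The 9 genes had a median log2 fold change of 0.154, beside -0.017 for all genes, and it was -0.314 without liver sgPrdx2 3.2. In RNA of whole liver, fewer cells of a type and less RNA per cell cannot be told apart, which holds for each gene below.

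**Figure D1:**
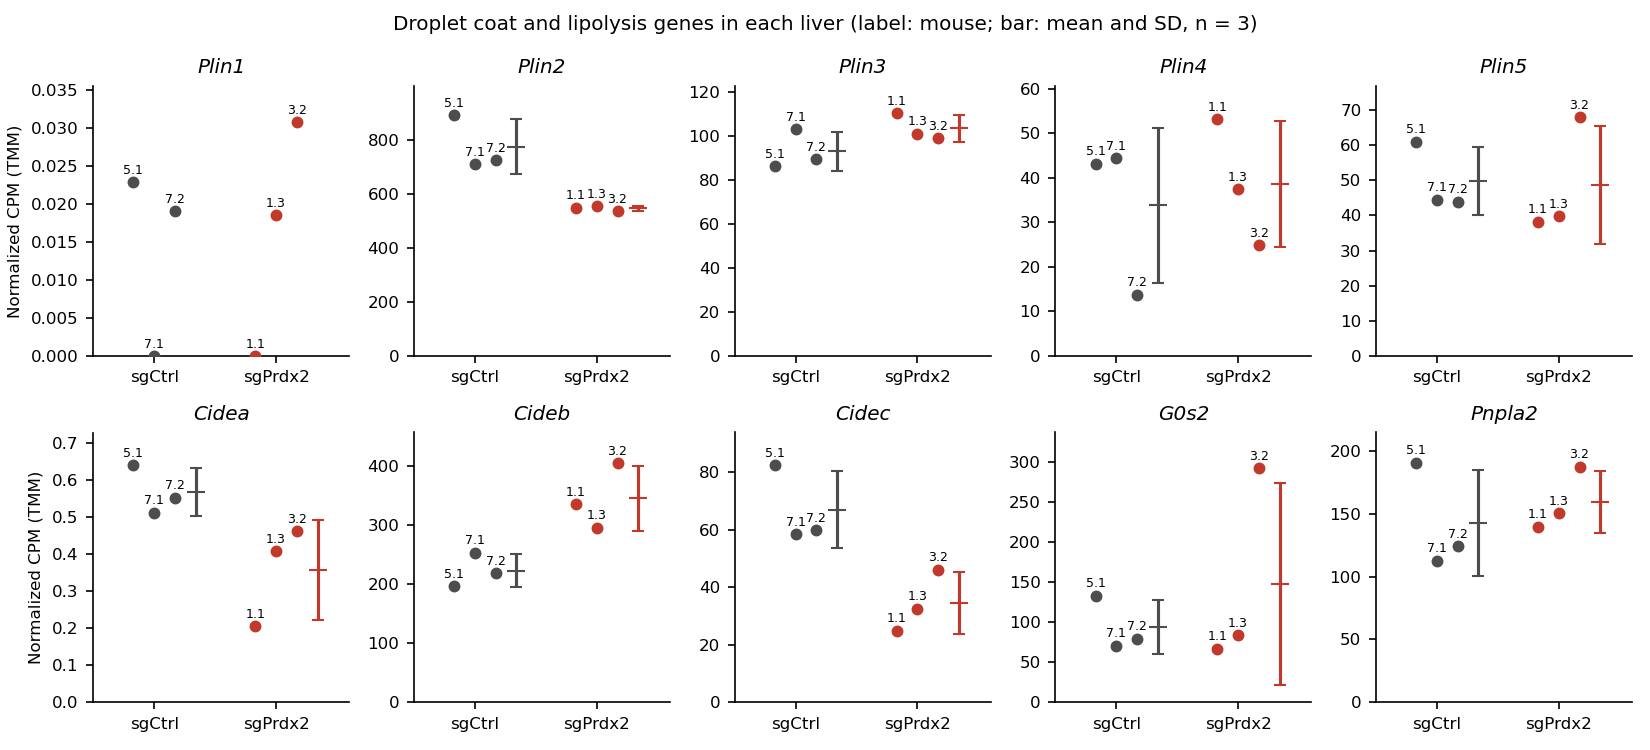
Normalized CPM (y axis, from 0) of each of the 10 genes in the 3 sgCtrl livers (grey) and the 3 sgPrdx2 livers (red), each point labelled with its mouse and each bar giving the mean and SD of 3 livers; no bar is drawn for Plin1, which had at most 1 count per liver. Plin2, Cidea and Cidec lie lower and Cideb higher in all 3 sgPrdx2 livers, and liver 3.2 stands far above the others for G0s2.

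Genes of different length were compared per kilobase of annotated exon. In sgCtrl livers Plin2 ranked first, at 221 ± 28.6 CPM per kb (SD, n = 3), followed by Cideb (150 ± 19.2), G0s2 (108 ± 38.7), Pnpla2 (47.1 ± 13.9), Cidec (36 ± 7.2), Plin3 (24.6 ± 2.32), Plin5 (23.9 ± 4.67), Plin4 (5.84 ± 3.01), Cidea (0.509 ± 0.0587) and Plin1 (0.003 ± 0.00263). The ranges of the 3 livers overlapped between the neighbours Cideb and G0s2, Pnpla2 and Cidec, and Plin3 and Plin5. Within livers, however, Pnpla2 was above Cidec in all 6, whereas the order of Cideb and G0s2 and that of Plin3 and Plin5 changed between livers. In sgPrdx2 livers Cideb stood at 232 ± 37 CPM per kb and Plin2 at 155 ± 2.79. Plin2 was thus above Cideb in each sgCtrl liver (202 to 253 against 132 to 170) and below it in each sgPrdx2 liver (152 to 158 against 199 to 272), on an exon length that counts every annotated isoform. This order of Plin2 and Cideb is uncertain, because most of the Cideb exon overlaps another gene (given below) and reads there may have been dropped.

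Plin2 encodes the main droplet coat protein of hepatocytes, which is degraded when it is not bound to lipid. Its gene lies on chromosome 4 (GRCm38, 86648386 to 86670060, minus strand). Normalized Plin2 levels were 890, 709 and 725 CPM in sgCtrl and 549, 554 and 535 CPM in sgPrdx2 (means 774 ± 100.4 and 546 ± 9.81, SD, n = 3). All 3 sgPrdx2 livers lay below the lowest sgCtrl liver and close to each other, whereas sgCtrl 5.1 stood above the other sgCtrl livers. The log2 fold change was -0.50 ± 0.15 SE, with a 95% interval from -0.85 to -0.16 (edgeR adjusted p = 0.0967). The exact permutation test gave p = 0.1, the smallest that 3 livers against 3 allow. Leaving out single livers moved the log2 fold change between -0.565 and -0.393.

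Marker levels of other liver cells are given beside those of Plin2 and Cidec. The sum of 8 macrophage and Kupffer cell markers was 3803 to 4314 CPM in sgCtrl and 2481 to 3293 CPM in sgPrdx2. Of these 8, edgeR called 2 lower, beside 1.54% of all genes, and DESeq2 called 4, beside 14% of the genes it tested. Lyz2 held the most counts of the sum in every liver. The Kupffer cell gene Clec4f had 1077, 2891 and 7549 counts in sgCtrl and 3690, 2712 and 1651 counts in sgPrdx2. Timd4, another one, had 8, 31 and 57 counts against 42, 41 and 6, so both overlapped between the groups. Lyz2, Clec4f and Timd4 are named after their values were seen. The sum of 6 stellate cell and fibroblast markers was 1109 to 1238 CPM in sgCtrl and 866 to 930.2 CPM in sgPrdx2. Of these 6, edgeR and DESeq2 called 0, and 2 had an unadjusted p under 0.05, beside 24.9% of all genes. Dcn held the most counts of this sum in every liver. Reln had 2441, 3935 and 3913 counts in sgCtrl and 4079, 4858 and 1927 counts in sgPrdx2, so its groups overlapped. Those of Des (1674, 859 and 1353 against 965, 1323 and 1244 counts) and Pdgfrb (3829, 3684 and 4498 against 3411, 4591 and 2383 counts) overlapped too. Dcn, Reln, Des and Pdgfrb are named after their values were seen. Counts of single genes in this paragraph are before normalization. Of 8 hepatocyte markers, edgeR called 5 higher, beside 1.79% of all genes, and DESeq2 called 7, beside 14% of the genes it tested. The part of these cell types in the Plin2 and Cidec levels was not tested.

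The window around the start of Plin2 is shown because Plin2 is the most abundant coat transcript and lay apart between the groups. RefSeq's promoter table (GRCm38.p6) gives it at chr4:86670040-86670309, minus strand, with 250 bases before and 20 bases from the start, printed 5′ to 3′ with motif matches in capitals.
Plin2: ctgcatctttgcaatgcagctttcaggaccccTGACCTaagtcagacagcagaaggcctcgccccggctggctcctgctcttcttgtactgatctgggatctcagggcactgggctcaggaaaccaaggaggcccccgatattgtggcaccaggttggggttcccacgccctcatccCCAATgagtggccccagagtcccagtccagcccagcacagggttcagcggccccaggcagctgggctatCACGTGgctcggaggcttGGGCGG
The capitals mark, in order, TGACCT (the nuclear receptor core AGGTCA on the opposite strand, at -218 to -213 from the start), the CCAAT box CCAAT at -73 to -69, the E-box CACGTG at -4 to 2 and the GC box GGGCGG at 15 to 20. Both strands were searched, and among 32851 mouse promoter windows of this length 15% held AGGTCA, 35.4% CCAAT, 6.57% CACGTG and 34.1% GGGCGG. The direct repeat AGGTCANAGGTCA, in which this core stands 2 times and which is the form bound by PPAR with RXR, was found in 0.0335% of all windows and in none of the 11 windows listed for 9 of the 10 genes (Cidea was not searched here), and the CRE core TGACGT in 7.11% and in none. Of the 9 genes searched, Plin2 was the 1 with an E-box match, and Plin5 was the 1 other with the nuclear receptor core. A match is a description of letters and no evidence of binding. The absence from 11 windows of a pattern as rare as the direct repeat is no evidence that these genes lack such a site.

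Plin3 and Plin5, which encode a ubiquitous coat protein and one of oxidative tissues that links droplets to mitochondria, gave overlapping groups. Plin3 was at 86.4, 103 and 89.5 CPM in sgCtrl and at 110.3, 101 and 99 CPM in sgPrdx2 (log2 fold change 0.15 ± 0.13 SE, 95% interval -0.15 to 0.46, edgeR adjusted p = 0.491). Plin5 was at 61, 44.5 and 43.9 CPM in sgCtrl and at 38.2, 39.9 and 68.1 CPM in sgPrdx2, a log2 fold change of -0.03 ± 0.25 SE (95% interval -0.61 to 0.54, edgeR adjusted p = 0.945). In the sgPrdx2 group the 2 lower livers lay below every sgCtrl liver and liver 3.2 exceeded all of them, and without liver 3.2 the log2 fold change was -0.34.

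Plin4 and Plin5 are neighbours on chromosome 17 (56100591 to 56109803 and 56111601 to 56117596, both on the minus strand). Plin4, a coat protein gene of adipocytes and muscle, was at 43.1, 44.4 and 13.7 CPM in sgCtrl and at 53.1, 37.4 and 24.9 CPM in sgPrdx2 (log2 fold change 0.19 ± 0.44 SE, 95% interval -0.82 to 1.20, edgeR adjusted p = 0.81). It varied within each group by more than the groups differed, with liver sgCtrl 7.2 the lowest of all 6. The sum of 6 skeletal muscle markers was 0.495 to 0.571 CPM in sgCtrl and 0.342 to 0.461 CPM in sgPrdx2, with Myh4 at 0 in all livers. Of these 6, 2 were tested and 0 called, and Ckm and Myh1 had at most 5 counts in any liver. Acta1 had 9, 12 and 13 counts in sgCtrl and 1, 4 and 2 counts in sgPrdx2. Ckm, Myh1 and Acta1 are named after their values were seen. At so few counts the sum does not measure a difference in muscle content. Despite their position, Plin4 and Plin5 were not highest in the same liver, since Plin4 peaked in sgPrdx2 1.1 and Plin5 in sgPrdx2 3.2.

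Plin1, the coat protein gene of white adipocytes, had 1, 0 and 1 counts in sgCtrl and 0, 1 and 1 counts in sgPrdx2, all under the floor of 3 counts, and was not tested. The adipocyte genes Adipoq, Lep, Retn, Slc7a10 and Ucp1 had at most 5 counts in any liver, with Lep at 0 in all 6. The sum of 8 adipocyte markers was nevertheless 4.05 to 7.81 CPM in sgCtrl and 14.1 to 17.7 CPM in sgPrdx2. Most of it came from the beta-3 adrenergic receptor gene Adrb3, which had 188, 302 and 189 counts in sgCtrl and 662, 912 and 418 counts in sgPrdx2. Of the 8 markers, 3 were tested and 1, Adrb3, was called higher, beside 1.79% of all genes. Tusc5 went the other way, with 25, 19 and 21 counts in sgCtrl and 10, 8 and 16 counts in sgPrdx2. Cfd had 0, 26 and 1 counts in sgCtrl and 64, 36 and 23 counts in sgPrdx2. Adrb3, Tusc5 and Cfd are named after their values were seen. The higher adipocyte marker sum in sgPrdx2 thus came mostly from 1 gene, and the markers did not move as a set.

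Within the perilipin family, Plin2 took 81%, 78.2% and 81.4% of the summed level per kb in sgCtrl and 73.4%, 75.1% and 70.7% in sgPrdx2. The share of Plin3 was 9.06% ± 1.64 in sgCtrl and 12.8% ± 0.783 in sgPrdx2, and that of Plin5 was 8.63% ± 0.616 and 10.9% ± 3.64 (SD, n = 3). The groups did not overlap for the Plin2 and Plin3 shares, each with an exact permutation p = 0.1, the smallest possible, and they overlapped for Plin5, whose share was 15.1% in liver 3.2 and at most 9.35% in the other livers. The shares of a family make up a whole, so a lower Plin2 share raises the others. The Plin3 share is thus no separate result, and the Plin3 level itself overlapped between the groups. Shares within a liver do not depend on how libraries were scaled to each other.

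**Figure D2:**
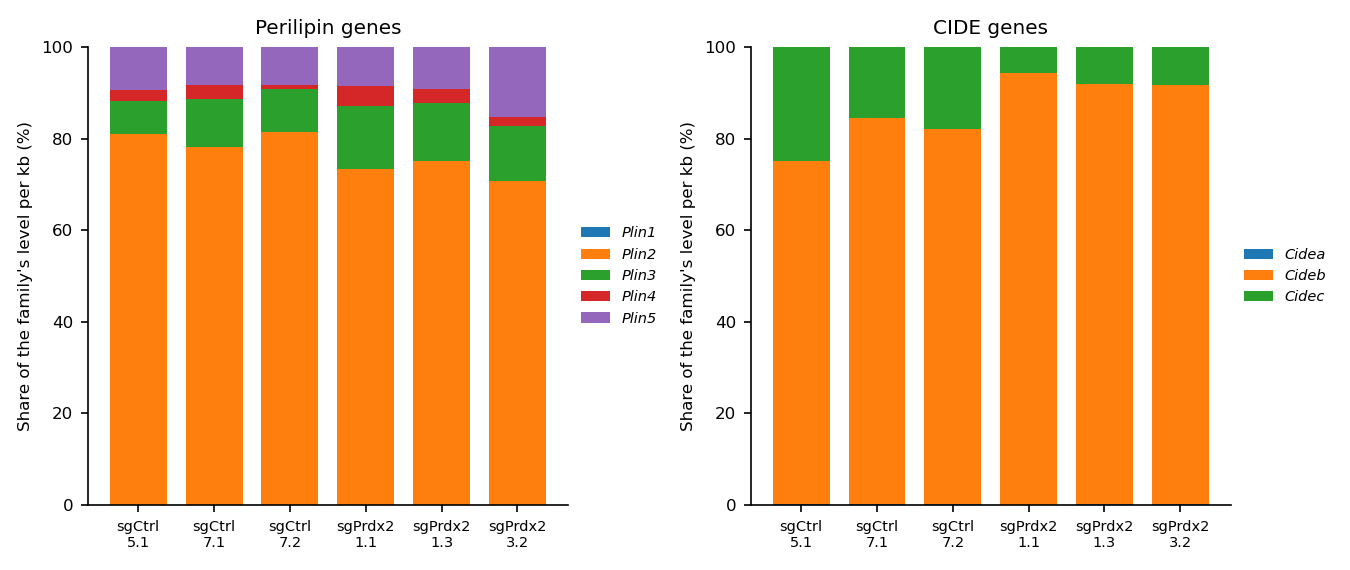
Share of each gene in its family's summed level per kb of exon (y axis, %), with 1 bar per liver; perilipin genes on the left and CIDE genes on the right. Plin2 takes 78.2% to 81.4% of the perilipin level in sgCtrl and 70.7% to 75.1% in sgPrdx2, and Cidec 15.6% to 25% of the CIDE level in sgCtrl and 5.61% to 8.36% in sgPrdx2.

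The abundant CIDE genes, Cidec and Cideb, lay apart in opposite directions. Cidec, also called Fsp27, promotes fusion into large droplets and is scarce in lean liver. It was at 82.3, 58.5 and 59.8 CPM in sgCtrl and at 24.9, 32.6 and 46.1 CPM in sgPrdx2 (means 66.9 ± 13.4 and 34.5 ± 10.7, SD, n = 3). The highest sgPrdx2 liver was 3.2, and it lay below the lowest sgCtrl liver. The log2 fold change was -0.95 ± 0.24 SE, with a 95% interval from -1.51 to -0.40 (edgeR adjusted p = 0.0699). Without liver sgPrdx2 3.2, Cidec was called, at a log2 fold change of -1.21 (edgeR adjusted p = 0.039), and leaving out any other liver gave -0.767 or lower with no call. Of these other fits, all but the one without sgCtrl 7.1 called 0 of all genes.

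Cideb, the CIDE gene of healthy hepatocytes, whose product is also found on the endoplasmic reticulum and takes part in loading lipid on VLDL, was at 197, 254 and 219 CPM in sgCtrl and at 336, 296 and 405 CPM in sgPrdx2. Each sgPrdx2 liver exceeded each sgCtrl liver, and the log2 fold change was 0.63 ± 0.17 SE (95% interval 0.23 to 1.03, edgeR adjusted p = 0.0807). Leaving out single livers moved it between 0.514 and 0.749. Cideb lies on chromosome 14 (55754050 to 55758458, minus strand), and 76.3% of its exon bases are also exon of Nop9 on the opposite strand. The strand setting of the counting is not given in the sources used here, so reads of this stretch could have been dropped or assigned to either gene, and the Cideb level is uncertain. Nop9, named for this overlap, was at 20.1, 21 and 20.5 CPM in sgCtrl and at 21, 18.8 and 21.5 CPM in sgPrdx2, with groups that overlapped (log2 fold change -0.01 ± 0.11 SE, edgeR adjusted p = 0.97).

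Cidea, best known from brown fat and found in fatty liver, had 23 to 29 counts in sgCtrl and 9 to 22 in sgPrdx2. This corresponds to 0.64, 0.512 and 0.552 CPM in sgCtrl and to 0.205, 0.407 and 0.461 CPM in sgPrdx2. The groups did not overlap, but at this depth the 95% interval of the log2 fold change ran from -1.49 to 0.14 around -0.67 (edgeR adjusted p = 0.276).

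The ratio of Cidec to Cideb per kb was 0.335, 0.185 and 0.219 in sgCtrl and 0.0595, 0.0883 and 0.0914 in sgPrdx2. On the log2 scale the mean was -2.07 ± 0.44 in sgCtrl and -3.67 ± 0.34 in sgPrdx2 (SD, n = 3), a difference of -1.61 that left the groups apart (exact permutation p = 0.1, the smallest possible, and 0.35 adjusted over the 7 pairs compared). Cidec held 19.5% ± 4.9 of the CIDE level in sgCtrl and 7.36% ± 1.52 in sgPrdx2, and Cideb 80.2% ± 4.95 and 92.5% ± 1.56. These shares and ratios carry the uncertainty of Cideb, whereas the Cidec level alone does not.

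The windows of Cidec, at both starts that RefSeq lists, and of Cideb are shown because these genes of 1 family lay apart in opposite directions. They lie on the minus strand at chr6:113435741-113436010, chr6:113434745-113435014 and chr14:55758405-55758674 (GRCm38.p6), with motif matches again in capitals.
Cidec, first start: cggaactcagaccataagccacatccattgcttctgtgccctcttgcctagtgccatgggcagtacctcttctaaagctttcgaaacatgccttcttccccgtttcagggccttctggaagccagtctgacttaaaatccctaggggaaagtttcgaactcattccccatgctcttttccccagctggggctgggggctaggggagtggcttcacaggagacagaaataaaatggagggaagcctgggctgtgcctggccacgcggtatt
Cidec, second start: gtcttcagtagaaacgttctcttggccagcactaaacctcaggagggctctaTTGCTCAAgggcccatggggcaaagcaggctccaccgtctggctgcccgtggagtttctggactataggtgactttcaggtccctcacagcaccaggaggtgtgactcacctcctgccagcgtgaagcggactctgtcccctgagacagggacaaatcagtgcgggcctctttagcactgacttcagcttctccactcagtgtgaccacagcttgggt
Cideb: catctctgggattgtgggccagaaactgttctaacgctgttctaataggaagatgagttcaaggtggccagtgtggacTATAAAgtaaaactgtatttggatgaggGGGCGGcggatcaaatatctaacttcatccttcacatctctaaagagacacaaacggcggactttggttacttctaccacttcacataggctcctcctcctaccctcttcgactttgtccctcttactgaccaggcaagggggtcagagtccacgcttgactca
The capitals in the second Cidec window are a match to the C/EBP core TTGCNNAA at -198 to -191, a pattern held by 10.1% of all windows and, among the 9 genes searched, also by Plin1. The capitals in the Cideb window are the TATA box letters TATAAA at -172 to -167 (12.9% of all windows) and a GC box at -144 to -139. No letters of the 8 motifs searched stand in the first Cidec window. No 2 of the windows printed here share a motif other than the GC box of Plin2 and Cideb, which 7 of the 11 windows of the 9 genes searched held.

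Pnpla2, on chromosome 7 (141455198 to 141460743, plus strand), encodes ATGL, which starts the breakdown of stored triglyceride. It was at 190, 113 and 124 CPM in sgCtrl and at 140, 150 and 187 CPM in sgPrdx2, and the groups overlapped (log2 fold change 0.16 ± 0.22 SE, 95% interval -0.36 to 0.68, edgeR adjusted p = 0.684). The highest value of all was that of liver sgCtrl 5.1.

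G0s2, a small gene on chromosome 1 (193272161 to 193273217, minus strand), encodes the inhibitor of ATGL. It was at 133, 70.7 and 79.5 CPM in sgCtrl and at 66.9, 83.8 and 292 CPM in sgPrdx2, with the 292 CPM in liver 3.2. The log2 fold change of 0.65 ± 0.54 SE (95% interval -0.61 to 1.9, edgeR adjusted p = 0.487) rested on that liver, without which it was -0.31 (edgeR adjusted p = 0.527).

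The ratio of G0s2 to Pnpla2 per kb, inhibitor to lipase, lay close together in sgCtrl livers, at 2.42, 2.18 and 2.22. In sgPrdx2 the ratio was 1.66, 1.93 and 5.41, below every sgCtrl liver in mice 1.1 and 1.3 and above all of them in 3.2. The difference in mean log2 ratio was 0.19 (1.18 ± 0.08 in sgCtrl and 1.37 ± 0.93 in sgPrdx2, SD, n = 3, exact permutation p = 1), and it was -0.34 without liver 3.2. The ratio of the activator gene Abhd5 to Pnpla2 was 0.0877, 0.151 and 0.131 in sgCtrl and 0.11, 0.105 and 0.103 in sgPrdx2 (exact permutation p = 0.5), and G0s2 to Abhd5 differed by 0.37 on the log2 scale (exact permutation p = 0.6), or by -0.18 without liver 3.2.

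Among pairs of coat genes, Plin5 to Plin2 was 0.115, 0.106 and 0.102 in sgCtrl and 0.117, 0.121 and 0.214 in sgPrdx2, apart by a log2 difference of 0.43 (exact permutation p = 0.1, adjusted over 7 pairs 0.35) that was 0.148 without liver 3.2. Cidec to Plin2 was 0.175, 0.156 and 0.156 in sgCtrl and 0.086, 0.111 and 0.163 in sgPrdx2, so that the ratio in liver 3.2 lay within the sgCtrl range (exact permutation p = 0.3). Plin4 to Plin2 ranged from 0.0115 to 0.0381 in sgCtrl and from 0.0283 to 0.0588 in sgPrdx2 (exact permutation p = 0.3).

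**Figure D3:**
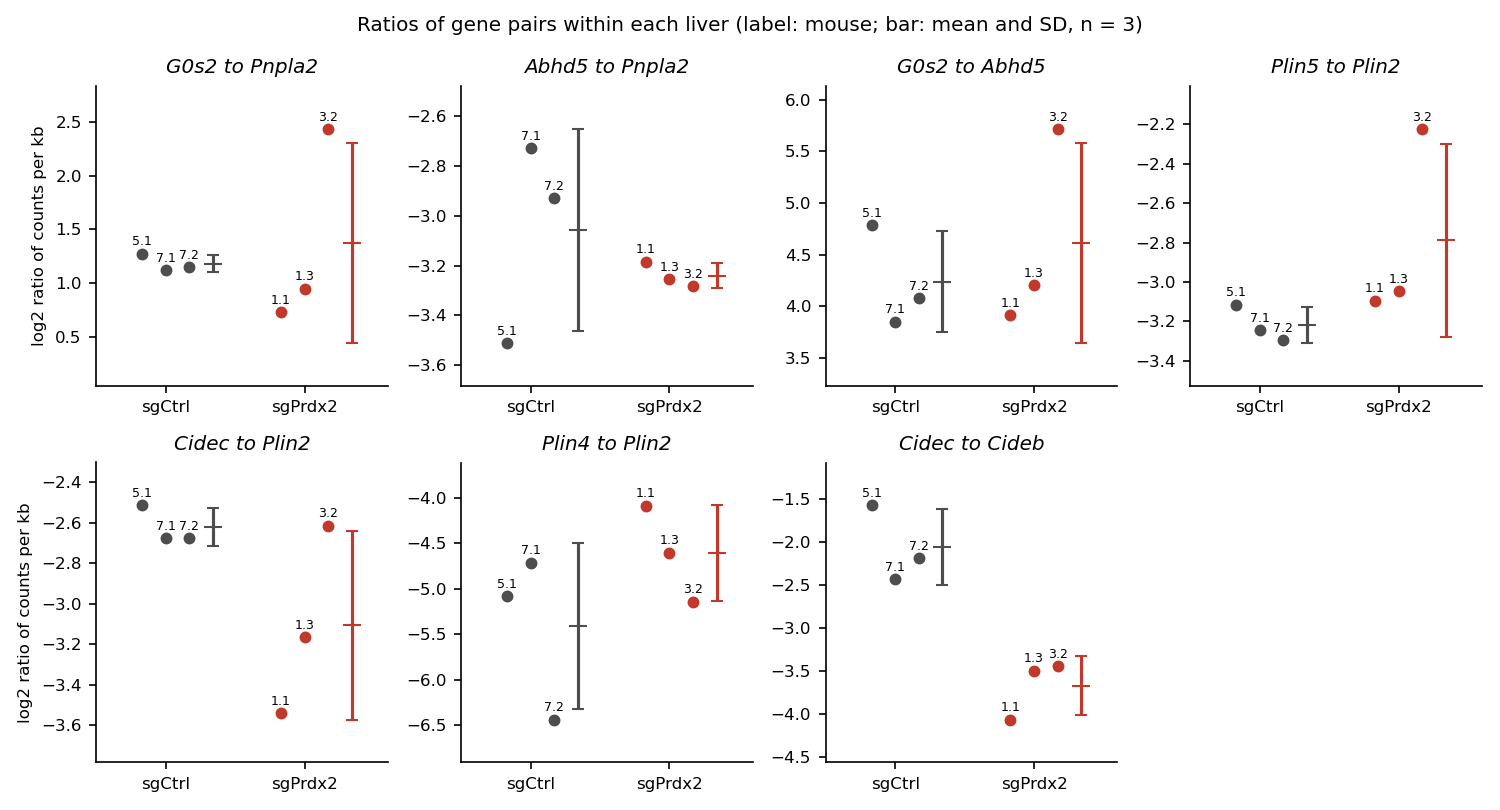
Log2 ratio of counts per kb for the 7 gene pairs compared (y axes, each panel on its own scale), with points labelled by mouse, sgCtrl in grey, sgPrdx2 in red and bars giving mean and SD of 3 livers. The groups do not overlap for Cidec to Cideb and for Plin5 to Plin2, and liver 3.2 lies far above the other sgPrdx2 livers in both G0s2 panels.

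**Figure D4:**
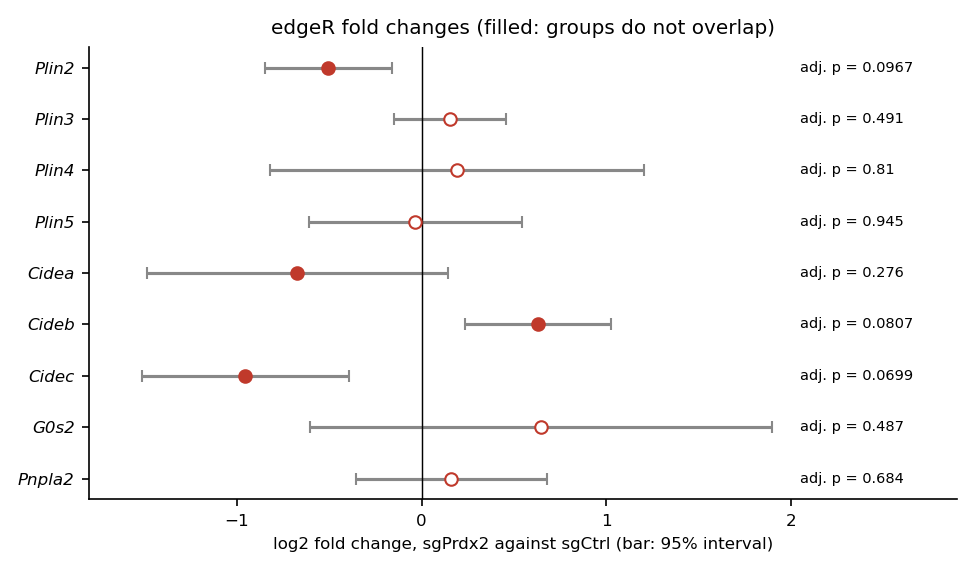
Log2 fold change of sgPrdx2 against sgCtrl (x axis) for the 9 genes tested, with 95% intervals and edgeR adjusted p at the right; filled points mark genes whose groups do not overlap. The intervals of Plin2, Cideb and Cidec leave out 0, and the adjusted p is above 0.05 for all 9.

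Genes with neighbouring roles in droplet biology were described from 5 lists. Of all 17032 genes, 8230 had a log2 fold change above 0 and 8802 below 0, with a median of -0.017. Of 8 other lipolysis genes, 1 was called, higher, beside 1.79% of all genes, 5 had a positive and 3 a negative log2 fold change, and their median was 0.0265. The called gene was Lipe, hormone-sensitive lipase, which takes diglyceride after ATGL has acted. Lipe rose from 18.3, 17.9 and 16.1 CPM in sgCtrl to 28.3, 24.4 and 32.4 CPM in sgPrdx2 (log2 fold change 0.70 ± 0.14 SE, edgeR adjusted p = 0.0459). Leaving out any 1 liver other than sgPrdx2 3.2 ended the call, with edgeR adjusted p from 0.0763 to 0.168 and log2 fold changes from 0.645 to 0.815. With total count scaling it was 0.317 (edgeR adjusted p = 0.108).

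Hilpda, a second peptide inhibitor of ATGL, was at 6.67, 6.18 and 7.57 CPM in sgCtrl and at 3.51, 5.18 and 4.21 CPM in sgPrdx2 without overlap (log2 fold change -0.66, edgeR adjusted p = 0.0925). Lipa, lysosomal acid lipase, was at 391 to 427 CPM in sgCtrl and at 273 to 335 CPM in sgPrdx2 (log2 fold change -0.39, edgeR adjusted p = 0.146). Aup1, a droplet protein of the ubiquitin system, had a log2 fold change of 0.43 (edgeR adjusted p = 0.223). Of both inhibitor genes of ATGL, the Hilpda groups lay apart and those of G0s2 overlapped.

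Of 15 genes of droplet formation and triglyceride assembly, edgeR called 0, DESeq2 called 1 (Dgat2, beside 14% of the genes it tested), and 7 had an unadjusted p under 0.05, beside 24.9% of all genes. Their median log2 fold change was 0.269, with 12 above and 3 below 0, beside 8230 above and 8802 below 0 of all genes. Dgat2, which makes triglyceride from diglyceride, was at 321 to 366 CPM in sgCtrl and at 413 to 493 CPM in sgPrdx2 (log2 fold change 0.44, edgeR adjusted p = 0.116). Bscl2, which encodes seipin at the site where droplets bud, had a log2 fold change of 0.48 (edgeR adjusted p = 0.128), and Gpat3, an acyltransferase of the first step of glycerolipid synthesis, one of -0.49 (edgeR adjusted p = 0.156).

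Of 12 other proteins found on hepatocyte droplets, edgeR called 0 and DESeq2 3 (14% of the genes it tested), and 3 had an unadjusted p under 0.05 (24.9% of all genes). Their median was 0.371 with 11 above 0, beside 8230 of all 17032 genes. With total counts in place of TMM the median was -0.00498, so these signs depend on the scaling. Mettl7a1, a methyltransferase-like protein, was at 135 to 171 CPM in sgCtrl and at 223 to 246 CPM in sgPrdx2 (log2 fold change 0.58, edgeR adjusted p = 0.0655). Nsdhl and Lss, enzymes of cholesterol synthesis that locate in part to droplets, had log2 fold changes of 0.91 and 0.67 (edgeR adjusted p = 0.0708 and 0.0718).

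Of 12 transcription factors and AMPK subunits known to act on droplet genes, edgeR called 0 and DESeq2 4 (14% of the genes it tested), and 7 had an unadjusted p under 0.05 (24.9% of all genes), with a median of 0.279. Cebpa, a hepatocyte and adipocyte factor, was at 163 to 238 CPM in sgCtrl and at 297 to 364 CPM in sgPrdx2 (log2 fold change 0.67, edgeR adjusted p = 0.0772). Creb3l3, a liver factor of fasting and triglyceride metabolism, had a log2 fold change of 0.75 (edgeR adjusted p = 0.0891) and Ppard, a fatty acid receptor, one of -0.44 (edgeR adjusted p = 0.0912).

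Of 7 genes of triglyceride export, edgeR called 0, DESeq2 2 (14% of the genes it tested), and 2 had an unadjusted p under 0.05 (24.9% of all genes), with a median of 0.32. Ces3a, a carboxylesterase of the liver endoplasmic reticulum, was at 673 to 1279 CPM in sgCtrl and at 1685 to 2818 CPM in sgPrdx2 (log2 fold change 1.12, edgeR adjusted p = 0.0718). Sar1b, a GTPase that forms the vesicles exporting VLDL, had 0.48 (edgeR adjusted p = 0.116), and Tm6sf2, which helps to lipidate VLDL, 0.32 (edgeR adjusted p = 0.296). The hepatocyte marker sum, given above, was higher in sgPrdx2 beside all these lists, and its part in them was not tested.

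**Figure D5:**
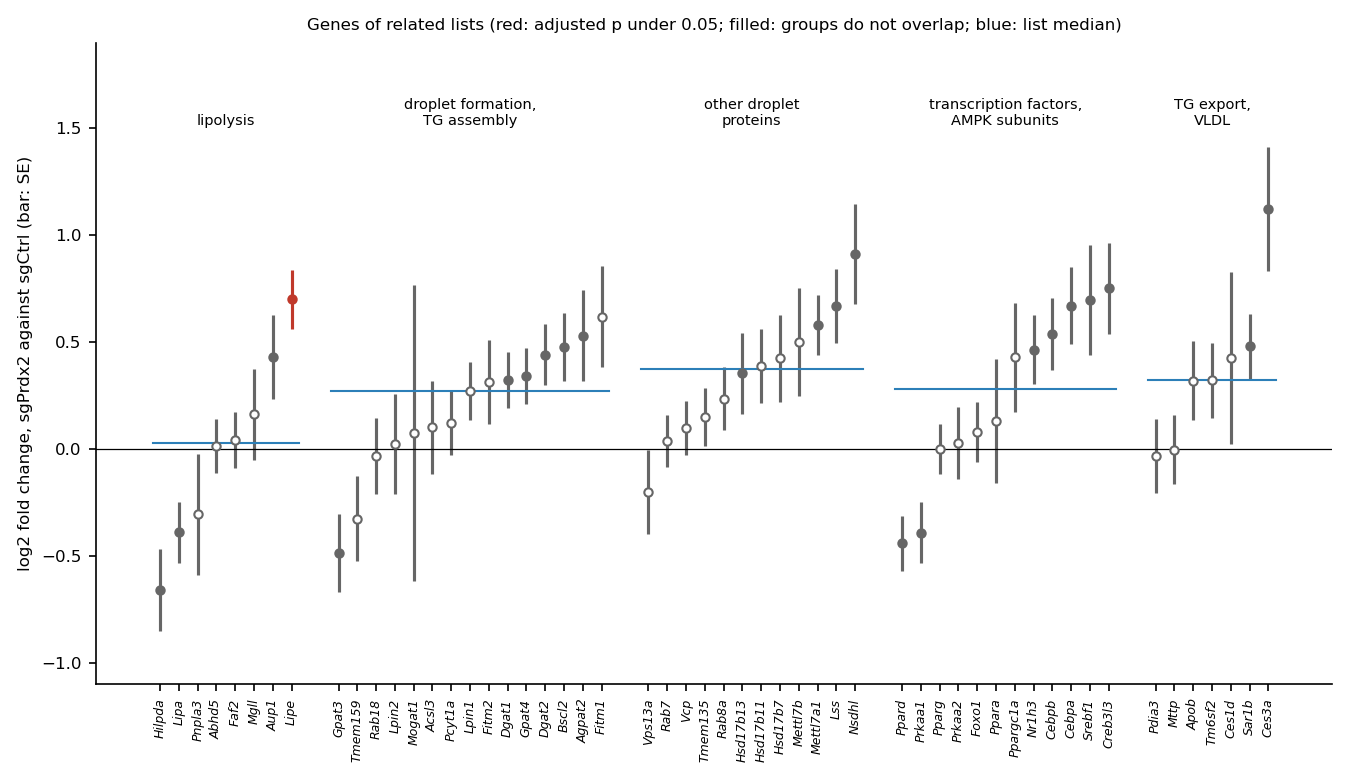
Log2 fold change of sgPrdx2 against sgCtrl (y axis, bars are SE) for every gene of the 5 related lists (x axis), with list medians as blue lines from 0.0265 in lipolysis to 0.371 in other droplet proteins. Lipe is the 1 gene in red, with an adjusted p under 0.05, and filled points are genes whose groups do not overlap.

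The level of every gene above depends on how libraries were scaled. With total counts in place of TMM, the log2 fold change of the median gene was -0.386, genes called lower numbered 3041 and higher 206, in place of 262 and 305, and Plin2 (-0.88, edgeR adjusted p = 0.018) and Cidec (-1.35, edgeR adjusted p = 0.0164) were called lower. Relative to that median, Plin2 stood at -0.491, Cidec at -0.96, Cideb at 0.636 and Lipe at 0.703, against -0.488, -0.938, 0.648 and 0.716 relative to the median with TMM. Plin3, Plin4 and Pnpla2, whose log2 fold changes turned negative with total counts, lay above the median of all genes with both scalings. The medians of the 5 related lists were all below 0 with total counts (lipolysis -0.346, droplet formation -0.0929, other droplet proteins -0.00498, transcription factors and AMPK subunits -0.07, triglyceride export -0.046) and above the -0.386 of all genes. With TMM, the median of transcription factors and AMPK subunits was 0.167 without liver sgPrdx2 1.1.

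Profiles over the 6 livers were compared for Plin2 and Cidec by the root mean square difference of log2 CPM centred on each gene's mean, over the 9266 genes whose mean reached 10 CPM. The genes most like Plin2 were Cd22 (0.0312), Myo1c (0.0379) and Cers5 (0.0438), where the median gene differed by 0.341. Cd22 was at 20.2, 16 and 16.9 CPM in sgCtrl and at 12.3, 13.2 and 12.3 CPM in sgPrdx2. Among the genes most like Cidec were Anxa1 (0.119) and Plaur (0.132), where the median was 0.621. Anxa1 was at 148, 107 and 128 CPM in sgCtrl and at 56.3, 62.3 and 90.3 CPM in sgPrdx2, with liver 3.2 the highest of its group as for Cidec. With 6 livers and 9266 genes, close profiles are a description of these libraries.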

How the data were processed

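RNA of 6 livers, 3 per group, was compared, with groups taken from the sample labels. The authors deposited a table of raw read counts per gene as whole numbers without normalization. Per the labels' processing notes the tools were HISAT2, HTSeq and DESeq2 on GRCm38. Their versions, the annotation and the strand setting are not given in the sources used here. The authors' comparison table (mean levels, fold changes and p-values) was not used.

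Under R 4.3.3, edgeR 4.0.16 was run with filterByExpr (minimum count 10), TMM normalization and the quasi-likelihood test over all 6 livers without covariate, with Benjamini-Hochberg adjustment over 17032 genes and a call at an adjusted p under 0.05. The biological coefficient of variation was 0.213. SE was taken as the size of the log2 fold change over √F, and 95% intervals use 7.92 degrees of freedom. DESeq2 1.42.0 was an alternative. The alternatives were RLE, upper-quartile and total count scaling, no filter, a minimum log2 fold change of 1, an adjusted p under 0.01, another pseudocount for ratios (10 in place of 0.5 counts) and leaving out each liver. Single values were compared by two-sided exact permutation tests. The fits were tested on simulated data. No 2 libraries agreed within sampling noise, with chi-square per degree of freedom from 23.6 to 191. The labels name separate mice, so p-values measure the spread between mice, taken as independent. Mice 7.1 and 7.2 share the number before the point, as do 1.1 and 1.3, and no such number occurs in both groups. What this number stands for is not given in the sources used here, and the tests do not account for it. Chi-square per degree of freedom was lowest for 1.1 with 1.3 within sgPrdx2 (23.6) and for 7.1 with 7.2 within sgCtrl (43.3). The floor of 3 counts covers counting error only.

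Exon lengths come from GENCODE vM21 (GRCm38), matched by symbol for 48007 of 52459 genes, and promoters from RefSeq GRCm38.p6. The genes and lists were chosen with earlier results of these data known. The rule for named genes takes the 10 genes, Prdx2, called members and up to 3 more with the smallest p of each list, and the 3 nearest profiles, of which 1 for Cidec is not reported here. Markers appear as sums and counts. Any further gene is marked in the text as picked with its values known.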

Additional observations from a re-analysis of the deposited data

How the results depend on the processing

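No paired analysis was possible because the groups share no mouse number. Of the single genes under all alternatives, 265 values kept direction and call, 24 passed the threshold newly, 6 lost it and 16 turned sign. The causes were not tested. Genes called higher (305) numbered 1168 with DESeq2, 644 with no filter, 0 at adjusted p under 0.01 and 154 at a log2 fold change of at least 1, and 0 to 324 leaving out a liver. Genes called lower (262) numbered 3041 with total count scaling, 898 with DESeq2, 484 with no filter, 0 at adjusted p under 0.01, 72 at a log2 fold change of at least 1, and 0 to 295 leaving out a liver. Leaving out sgCtrl 5.1, sgCtrl 7.2, sgPrdx2 1.1 or sgPrdx2 1.3 gave the 0 calls. Of the droplet coat and lipolysis genes, 2 were called with total count scaling, 3 with DESeq2, 1 with no filter (Cidec, adjusted p = 0.0202) and 0 to 1 leaving out a liver. The lipolysis list (1 called) gave 2 with total count scaling or DESeq2, 0 at adjusted p under 0.01 or a log2 fold change of at least 1, and 0 to 1 leaving out a liver. Total count scaling gave 2 calls in droplet formation and 2 in transcription factors. DESeq2 gave 1 in droplet formation, 3 in other droplet proteins, 4 in transcription factors and 2 in triglyceride export, and no filter gave 2 in other droplet proteins and 1 in triglyceride export. Beside these counts, total count scaling called 206 of all 17032 genes higher and 3041 lower. DESeq2 called 14% of the genes it tested, and no filter gave 644 higher and 484 lower among all genes. With total count scaling the log2 fold changes that turned sign were those of Plin3 (-0.214), Plin4 (-0.171), Pnpla2 (-0.227), Tm6sf2 (-0.0613) and Prdx2 (-0.374). Prdx2 was at -0.00462 with upper-quartile scaling and -0.00496 with no filter. Leaving out a liver gave ranges of -0.185 to 0.439 for Plin4 (-0.113 without sgPrdx2 1.1), -0.34 to 0.139 for Plin5 (0.115 without sgPrdx2 1.1 and 0.11 without sgPrdx2 1.3), -0.314 to 0.993 for G0s2, -0.168 to 0.129 for Prdx2 (-0.0521 without sgCtrl 5.1 and -0.00809 without sgCtrl 7.1), -0.342 to 0.51 for the log2 ratio of G0s2 to Pnpla2 and -0.179 to 0.721 for G0s2 to Abhd5. The median of the 9 genes (0.154) was -0.227 with total count scaling, -0.116 without sgCtrl 7.2 and -0.314 without sgPrdx2 3.2. Depth limits Cidea and Plin1, and 3 livers per group limit the rest.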

Other observations

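Marker sums of the remaining liver cell types were endothelial cells at 195 to 229 CPM in sgCtrl and 144 to 224 CPM in sgPrdx2 (1 of 5 markers called lower), cholangiocytes at 138 to 221 and 119 to 138 CPM and lymphocytes at 16.2 to 22.1 and 14.4 to 16.4 CPM (1 of 5 called lower). Of all genes, 1.54% were called lower.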
